A study of Mus musculus with 9 samples.

Results

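The glutathione, peroxiredoxin and antioxidant genes described here are 54 genes of the mouse ventricle, out of 8251 genes that the array measured with at least 1 probe set of a single gene symbol, array controls left out. Members were selected by gene symbol, from the families of glutathione S-transferases, microsomal transferases, glutathione peroxidases, peroxiredoxins, thioredoxins and their reductases, glutaredoxins, aldehyde dehydrogenases, metallothioneins and haem oxygenases, together with Nqo1, the enzymes of glutathione synthesis and reduction, and superoxide dismutases Sod1 and Sod3. Their 77 probe sets were reduced to 1 per gene, the brightest over all 9 arrays, and 52 of the 54 genes were bright enough to be tested. Gsta1 and Aldh1a2 were not tested. Values are normalized intensities, ± after an intensity is the SD over 3 arrays, and ± after a log2 fold change is its standard error. A gene passed, or was called, at a Benjamini-Hochberg adjusted p under 0.05 over all probe sets tested with limma.

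The arrays came from ventricles of 9 mice, 3 per group and 1 array per mouse. In caPI3K mice the transgene encodes phosphoinositide 3-kinase (PI3K) in a constitutively active form, and they have, per the labels, hearts 20% larger than wild type littermates. dnPI3K mice carry dominant-negative PI3K and have hearts 17% smaller, and NTG mice carry no transgene and serve as the control of both lines. The labels give neither strain, age, sex nor the promoter of the transgenes, and in the published lines of these names a cardiomyocyte promoter drives them.

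Glutathione is the abundant small thiol of the cell. Peroxidases use it to reduce peroxides, transferases couple it to reactive molecules such as the aldehydes formed from oxidised lipids, and glutathione reductase returns it to its thiol form. Peroxiredoxins and thioredoxins form a parallel system, metallothioneins bind zinc and copper, and the transcription factor Nrf2 (Nfe2l2) switches on many genes of these families. The heart, with its dense mitochondria, makes superoxide and lipid aldehydes continuously, and PI3K acts through the kinase Akt on FoxO factors that also control antioxidant genes.

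Cardiomyocyte markers were at high intensity in all groups, with 7 of 8 measured and a summed level of 191243 to 198263 on caPI3K arrays, 188791 to 201421 on dnPI3K arrays and 191526 to 212054 on NTG arrays. Liver markers, which matter here because liver is rich in the same enzymes, were dim (3 of 4 measured, summed level 77.5 to 206 on caPI3K arrays, 136 to 234 on dnPI3K arrays and 104 to 131 on NTG arrays), and albumin was too dim to test. No gene of the endothelial (7), macrophage (6), erythroid (2) or adipocyte (3) lists passed in any comparison, and of 7 fibroblast genes Col1a1 alone did, higher in caPI3K than in dnPI3K. The dnPI3K arrays stood apart in a control that is not messenger RNA, the 3′ probe set of 18S ribosomal RNA, with a deposited intensity of 3303 to 8097 on dnPI3K arrays, against 475 to 540.4 on caPI3K arrays and 462 to 671 on NTG arrays. The dnPI3K animals also carry animal numbers from a lower range than the other mice, so the transgene and anything that goes with that series cannot be told apart in a comparison with dnPI3K.

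Few antioxidant genes passed the test in any comparison. Between caPI3K and NTG, limma called 0 of 52 members (0.0845% of all 10645 probe sets tested were called, 0.047% higher and 0.0376% lower), and 4 of 52, or 7.7%, had an unadjusted p under 0.05, against 6.9% of all probe sets. Between dnPI3K and NTG it called 1 of 52, Mgst3, which was lower in dnPI3K (2.18% of all probe sets were called, 1.01% higher and 1.16% lower), and 11 of 52, or 21.2%, had an unadjusted p under 0.05, against 14.8% of all. Between caPI3K and dnPI3K it called 3 of 52 (3.24% of all probe sets were called, 1.7% higher and 1.54% lower), with Gsta4 and Mgst3 higher and Mt2 lower in caPI3K, and 19 of 52, or 36.5%, had an unadjusted p under 0.05, against 16.4% of all.

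The fold changes of the members were centred near 0. Relative to NTG their median log2 fold change was 0.02 in caPI3K and 0.07 in dnPI3K, and it was -0.04 in caPI3K relative to dnPI3K, and the median of all probe sets tested was within 0.00326 of 0 in each. In the last comparison 8 members lay higher and 14 lower in caPI3K with no overlap between the arrays of the groups, where 11.2% and 12.1% of all probe sets did so. For dnPI3K against NTG, 9 lay higher and 6 lower without overlap, where 9.75% and 8.97% of all did, and for caPI3K against NTG 3 lay higher and 3 lower, where 6.32% and 5.37% of all did. The caPI3K and dnPI3K comparisons with NTG share the NTG arrays.

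**Figure D1:**
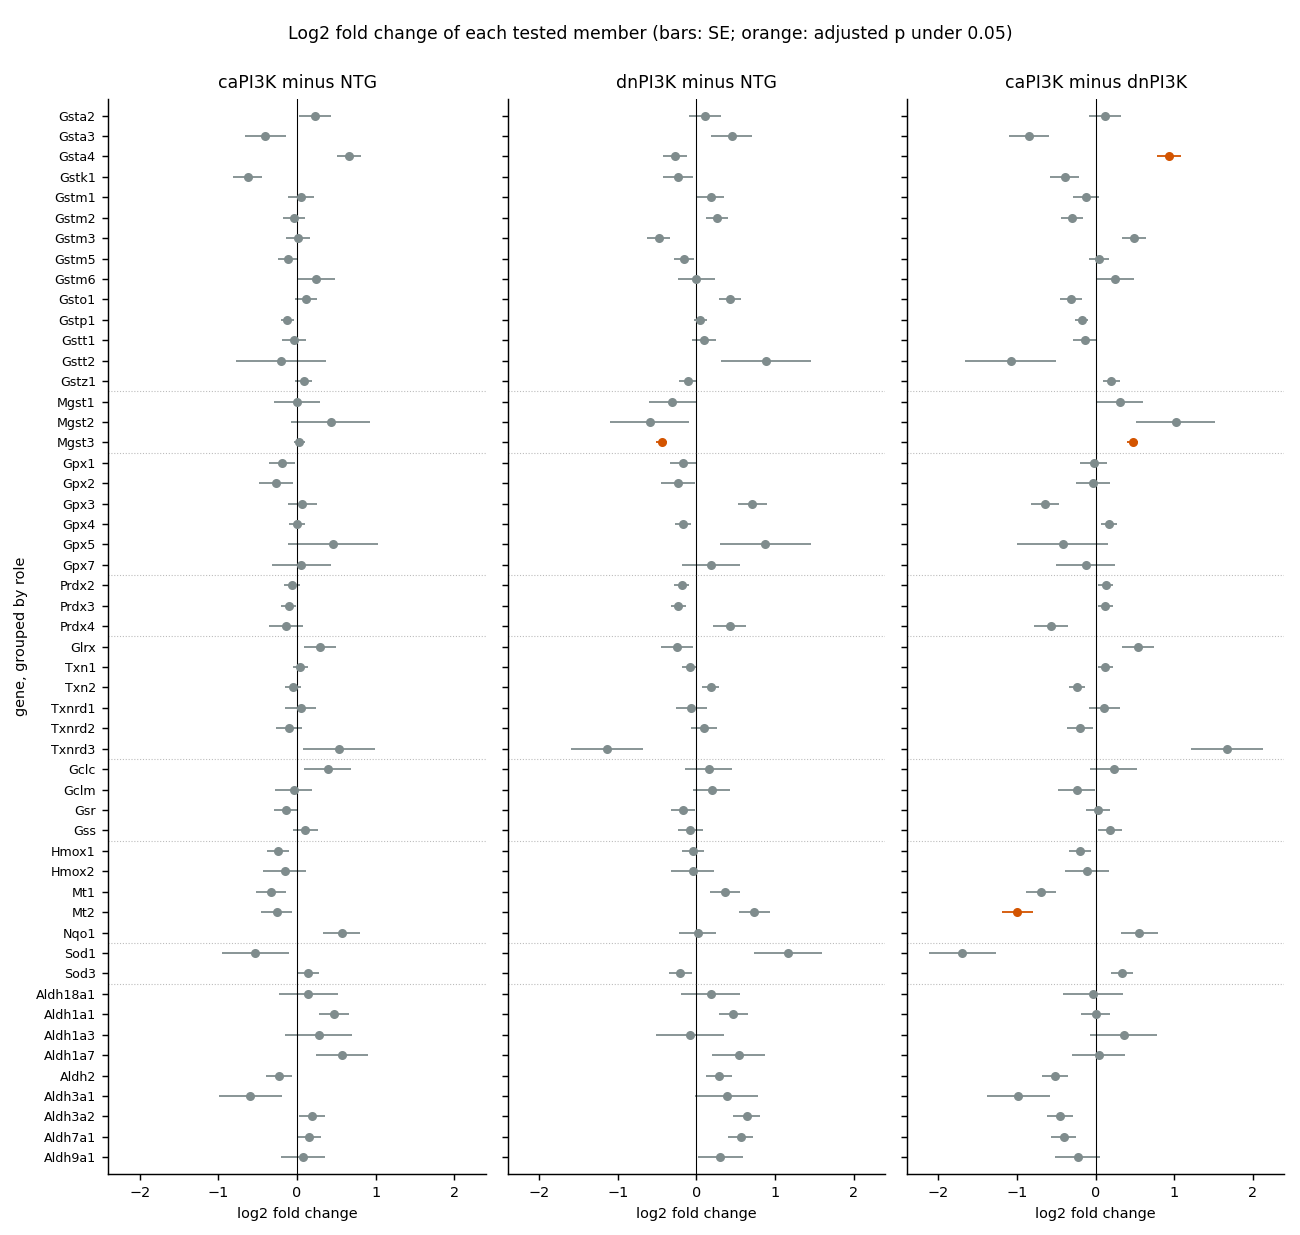
Log2 fold change (x axis) of each of the 52 tested members (y axis, grouped by role) for caPI3K minus NTG, dnPI3K minus NTG and caPI3K minus dnPI3K, with bars for the standard error and orange for an adjusted p under 0.05. No member is orange in the left panel, Mgst3 is in the middle one, and Gsta4, Mgst3 and Mt2 are in the right one.

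Microsomal transferases are membrane enzymes that couple glutathione to lipophilic molecules and reduce lipid peroxides. Mgst3 had a normalized intensity of 9579.6, 9234 and 9353 on caPI3K arrays, 6769, 7084 and 6506 on dnPI3K arrays and 8906, 9280.5 and 9427 on NTG arrays. All dnPI3K arrays lay below all others, while caPI3K and NTG arrays overlapped. Mgst3 was 0.74-fold in dnPI3K relative to NTG (log2 fold change -0.44 ± 0.072 (SE), limma adjusted p = 0.0129) and 1.38-fold in caPI3K relative to dnPI3K (log2 fold change 0.47 ± 0.072, adjusted p = 0.00601), and it differed by 0.029 ± 0.072 between caPI3K and NTG (adjusted p = 0.962). In tissue RNA, fewer cells of a type and less RNA per cell cannot be told apart. The lower level in dnPI3K than in NTG fell just short of the threshold without dnPI3K replicate 3 (adjusted p = 0.0558) or NTG replicate 2 (adjusted p = 0.0532), with log2 fold changes of -0.42 and -0.42. With arrays brought to 1 common median it was -0.39 (adjusted p = 0.0669), in a fit of dnPI3K and NTG alone the adjusted p was 0.0537, and with no intensity trend it was 0.134, a setting that also ended the call of caPI3K over dnPI3K (adjusted p = 0.0953).

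Fast skeletal muscle markers, taken as a sum, were also lowest on dnPI3K arrays. Their summed level, over 6 of 6 genes, was 14304 to 21241 on caPI3K arrays, 3044 to 3958 on dnPI3K arrays and 7550.0 to 11205 on NTG arrays, with Tnni2 too dim to test. Myl1 and Casq1 were called, lower in dnPI3K than in NTG and higher in caPI3K than in dnPI3K. Tnnt3, Actn3 and Pvalb did not pass, and their dnPI3K arrays overlapped the NTG arrays. For dnPI3K against NTG their log2 fold changes were 0.20, -0.79 and -0.46. Of 4 atrial markers Myl4 and Myl7 were called lower in dnPI3K than in NTG, and Nppa was called lower in caPI3K than in dnPI3K. Nppa and Sln lay higher in dnPI3K than in NTG without overlap, by 1.48 and 0.74, and did not pass. Sln was on the floor on all NTG arrays. The summed level was 2424 to 13434 on caPI3K arrays, 8684 to 11332 on dnPI3K arrays and 2118 to 21023 on NTG arrays. Nppa alone read 8414 to 11231 on dnPI3K arrays. Myl4 read 27.9 to 49.7 on dnPI3K arrays and 6896, 3669 and 223 on NTG arrays. The part of these markers in the differences of Mgst3 and the other members was not tested. Of the other microsomal enzymes, Mgst1 read 158 ± 49.4 on caPI3K arrays, 124 ± 14.3 on dnPI3K arrays and 153 ± 5.31 on NTG arrays (mean ± SD, n = 3 each), and Mgst2 read 112, 91.5 and 120.4 on caPI3K arrays, 65.1, 63.8 and 35.6 on dnPI3K arrays and 32.5, 170.3 and 84.4 on NTG arrays. The NTG arrays of Mgst2 spanned the values of both other groups. Neither passed in any comparison.

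The cytosolic glutathione S-transferases gave 1 call among 14 tested members, that of Gsta4, which encodes the alpha-class enzyme that detoxifies hydroxynonenal, an aldehyde of lipid peroxidation. Gsta4 read 804, 875 and 720.1 on caPI3K arrays, 358, 414 and 493 on dnPI3K arrays and 496, 518 and 499 on NTG arrays. The caPI3K arrays lay above all others, and the highest dnPI3K array lay just below the lowest NTG array. Relative to dnPI3K, Gsta4 was 1.91-fold in caPI3K (log2 fold change 0.93 ± 0.15, adjusted p = 0.00747), a call that held under all 19 alternatives with an adjusted p of 0.00386 to 0.0475. Gsta4 in caPI3K differed from NTG by 0.66 ± 0.15 (adjusted p = 0.262). In dnPI3K the same difference was -0.27 ± 0.15 (adjusted p = 0.449), and neither difference passed over all probe sets. The caPI3K minus NTG difference of Gsta4 was 0.73 in animals numbered from 2800 and 0.53 in those numbered from 3100. Only caPI3K replicate 3 and NTG replicate 3 are numbered from 3100, so a value for that series is 1 array minus 1 array.

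No other cytosolic transferase passed in the reported fit. Gsta3, an alpha-class enzyme, read 114, 146 and 98 on caPI3K arrays, 231, 192 and 216 on dnPI3K arrays and 139.5, 148 and 184 on NTG arrays, with caPI3K arrays below all dnPI3K arrays and a log2 fold change of -0.85 ± 0.26 between them (adjusted p = 0.113). With the floor at the 40th percentile it passed (adjusted p = 0.0297). Within the alpha class, Gsta3 and Gsta4 thus differed between caPI3K and dnPI3K in opposite directions, of which only that of Gsta4 passed. Gstk1, the kappa-class enzyme of mitochondria and peroxisomes, read 1521, 1356 and 1318 on caPI3K arrays, 2014, 1598 and 1923 on dnPI3K arrays and 1765, 1859 and 3075 on NTG arrays. The caPI3K arrays lay below all NTG arrays, with a log2 difference of -0.63 ± 0.19 (adjusted p = 0.484), and NTG replicate 3 lay far above the other NTG arrays. Without it the difference was -0.38 (adjusted p = 0.491), and it was -0.33 in animals numbered from 2800 and -1.22 in those from 3100. NTG replicate 3 is the only NTG array of the 3100 series.

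The mu class is a cluster of near-identical genes, and the brightest probe sets of Gstm1, Gstm3 and Gstm5 hold probes that also match other genes of the family, so their assignment to 1 gene is uncertain. Gstm3 read 2021, 1690.1 and 1609.8 on caPI3K arrays, 1582, 1019 and 1235 on dnPI3K arrays and 1672, 1809 and 1793 on NTG arrays. All dnPI3K arrays lay below all others, with a log2 difference of -0.48 ± 0.15 relative to NTG (adjusted p = 0.155), and caPI3K exceeded dnPI3K by 0.49 ± 0.15 (adjusted p = 0.121). Only without dnPI3K replicate 1 did the difference between caPI3K and dnPI3K pass (0.66, adjusted p = 0.0381). Gstm1 read 10824, 11231 and 10294 on caPI3K arrays, 11591, 12111 and 11591 on dnPI3K arrays and 12776, 11822 and 7413 on NTG arrays, and NTG replicate 3 lay below all other arrays. Gstp1, the pi-class enzyme, read 5209.9 ± 277 on caPI3K arrays, 5897 ± 478 on dnPI3K arrays and 5686 ± 108 on NTG arrays (mean ± SD), and its log2 fold changes lay within 0.18 of 0. The remaining tested transferases (Gsta2, Gstm2, Gstm5, Gstm6, Gsto1, Gstt1, Gstt2 and Gstz1) had log2 fold changes between -1.08 (Gstt2, caPI3K against dnPI3K) and 0.88 (Gstt2, dnPI3K against NTG) over the comparisons, and none passed.

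Of the metallothioneins, Mt2 was lower in caPI3K than in dnPI3K, and Mt1 had the same sign without passing. Mt2, a small cysteine-rich protein that holds zinc and copper and scavenges radicals, read 1228, 1252 and 802 on caPI3K arrays, 1697, 2484 and 2325 on dnPI3K arrays and 1504, 1170.2 and 1206 on NTG arrays. The dnPI3K arrays lay above all others, and caPI3K and NTG overlapped. Mt2 was 0.50-fold in caPI3K relative to dnPI3K (log2 fold change -0.997 ± 0.20, adjusted p = 0.021). The difference of dnPI3K from NTG was 0.74 ± 0.20 (adjusted p = 0.0939), and that of caPI3K from NTG was -0.26 ± 0.20 (adjusted p = 0.829). The call for Mt2 was lost without caPI3K replicate 3 (-0.79, adjusted p = 0.0542), dnPI3K replicate 2 (-0.89, adjusted p = 0.093) or dnPI3K replicate 3 (-0.94, adjusted p = 0.0779), and also with no filter on dim probe sets (adjusted p = 0.09) or no intensity trend (adjusted p = 0.0841).

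Mt1, the neighbouring and closely related gene, read 4817, 2694 and 2938 on caPI3K arrays, 4650.0, 6098 and 5708 on dnPI3K arrays and 4090.4, 4304 and 4319 on NTG arrays. Its caPI3K arrays overlapped the dnPI3K arrays through caPI3K replicate 1, and the difference between those groups was -0.70 ± 0.19 (adjusted p = 0.081). Without caPI3K replicate 1 it passed, at -0.96 (adjusted p = 0.0059), as it did with array weights (adjusted p = 0.0302). Smooth muscle markers, taken as a sum over 4 of 4 genes, were also highest on dnPI3K arrays. The sum was 1324 to 1754 on caPI3K arrays, 3148 to 4012 on dnPI3K arrays and 2068 to 2218 on NTG arrays. Acta2 and Myh11 were lower in caPI3K than in dnPI3K, and Acta2 was higher in dnPI3K than in NTG. Tagln did not pass in any comparison, with overlap between dnPI3K and NTG arrays (log2 fold change 0.23), and Cnn1 was too dim to test. The part of these markers in the metallothionein difference was not tested.

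**Figure D2:**
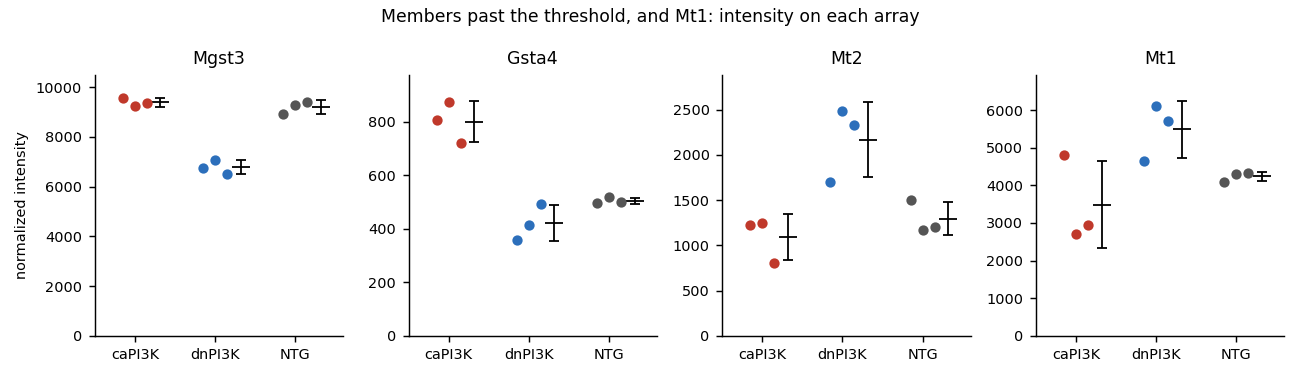
Normalized intensity (y axis, linear, from 0) of Mgst3, Gsta4, Mt2 and Mt1 on each array (points), by group, with the mean and SD (n = 3) as a bar to the right of each group. Mgst3 is lowest in dnPI3K, Gsta4 is highest in caPI3K, and Mt2 is highest in dnPI3K with no overlap, while 1 caPI3K array of Mt1 lies among the dnPI3K arrays.

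The promoter windows of the metallothionein genes and of Mgst3 are printed because Mt2 and Mgst3 were called and Mt1 is the nearest relative of Mt2. Each runs from 250 bases before to 50 bases after the start that RefSeq annotates (GRCm38.p6), 5′ to 3′ on the strand of the gene, with capitals for matches, searched on both strands, to TGACNNNGC, the core of the antioxidant response element bound by Nrf2, and to TGCACNC or TGCGCNC, cores of the metal response element bound by the zinc sensor Mtf1. Mt2 lies at chr8:94172368-94172667 (plus strand), Mt1 at chr8:94178839-94179138 (plus strand) and Mgst3 at chr1:167393792-167394091 (minus strand).
Mt2: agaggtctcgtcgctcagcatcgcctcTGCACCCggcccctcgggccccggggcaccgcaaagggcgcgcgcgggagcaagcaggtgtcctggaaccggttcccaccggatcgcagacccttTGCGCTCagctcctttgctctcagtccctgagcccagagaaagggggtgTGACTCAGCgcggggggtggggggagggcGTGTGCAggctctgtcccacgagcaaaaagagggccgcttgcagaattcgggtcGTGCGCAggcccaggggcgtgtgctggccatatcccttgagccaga
Mt1: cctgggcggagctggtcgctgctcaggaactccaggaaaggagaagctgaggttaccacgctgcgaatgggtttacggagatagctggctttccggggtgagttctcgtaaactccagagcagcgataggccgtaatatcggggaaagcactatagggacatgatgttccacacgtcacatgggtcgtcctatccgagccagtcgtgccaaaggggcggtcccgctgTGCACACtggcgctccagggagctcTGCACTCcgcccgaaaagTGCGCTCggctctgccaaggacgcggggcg
Mgst3: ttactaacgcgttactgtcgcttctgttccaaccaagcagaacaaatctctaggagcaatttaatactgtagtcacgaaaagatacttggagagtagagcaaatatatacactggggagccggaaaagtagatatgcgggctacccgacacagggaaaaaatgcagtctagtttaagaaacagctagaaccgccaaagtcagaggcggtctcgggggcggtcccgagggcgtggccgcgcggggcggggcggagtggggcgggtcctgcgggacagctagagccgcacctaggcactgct

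The Mt2 window held 4 metal response element cores and 1 antioxidant response element core, the Mt1 window held 3 metal response element cores and no antioxidant one, and the Mgst3 window held none of these letter patterns. No matches overlapped in these windows. The core TGCACNC stood in 12.6% of all 32851 windows and TGCGCNC in 15.4%, against 15.5% and 20.7% of 58 windows of 44 members that had one. At least 3 metal response element cores stood in 1.97% of all windows and, among members, in those of Gclm, Mt1 and Mt2, and at least 4 stood in 0.52% of all. The antioxidant response element core stood in 12.4% of all windows and in 9 of the 58 member windows (15.5%), those of Aldh1a2, Aldh9a1, Gclm, Gsta3, Gstm5, Mgst1, Mt2, Sod1 and Txnrd1. A match to these letters is a description of the sequence and not a measurement of binding.

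Nqo1, a quinone reductase that is a classical Nrf2 target, read 939.9, 1114 and 789 on caPI3K arrays, 656, 686 and 577 on dnPI3K arrays and 581, 458 and 947 on NTG arrays. The caPI3K arrays lay above the dnPI3K arrays and above NTG replicates 1 and 2, and NTG replicate 3 lay among the caPI3K arrays. The differences were 0.57 ± 0.24 for caPI3K against NTG (adjusted p = 0.691) and 0.56 ± 0.24 for caPI3K against dnPI3K (adjusted p = 0.264). The difference between caPI3K and NTG was 0.987 in animals numbered from 2800 and -0.26 in those from 3100. The latter is caPI3K replicate 3 minus NTG replicate 3, 1 array each. A second probe set of Nqo1 gave 0.027 for caPI3K against NTG. For caPI3K against dnPI3K it gave 0.38 (adjusted p = 0.336), with no overlap between the arrays of the groups. Haem oxygenase 1 (Hmox1), the inducible enzyme that breaks down haem, read 859.5 ± 70.5 on caPI3K arrays, 991 ± 121 on dnPI3K arrays and 1021 ± 158 on NTG arrays, with log2 fold changes of -0.24 for caPI3K against NTG and -0.040 for dnPI3K against NTG, and neither it nor the constitutive Hmox2 passed.

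Glutathione peroxidases reduce hydrogen peroxide and lipid peroxides with glutathione. Gpx3, the secreted form, read 10183, 7746 and 8619 on caPI3K arrays, 13067, 14356 and 13840.3 on dnPI3K arrays and 11231, 8451 and 6222 on NTG arrays. All dnPI3K arrays lay above all caPI3K and NTG arrays, by 0.71 ± 0.18 relative to NTG (adjusted p = 0.0795), and caPI3K differed from dnPI3K by -0.64 ± 0.18 (adjusted p = 0.0906). Neither difference passed with all arrays in the reported fit. Without NTG replicate 1 both passed, at 0.92 (adjusted p = 0.0221) and -0.65 (adjusted p = 0.0308), and without NTG replicate 3 the difference of caPI3K from dnPI3K passed (-0.64, adjusted p = 0.0207). The difference of caPI3K from dnPI3K also passed in a fit of those groups alone (adjusted p = 0.0215) and with array weights (adjusted p = 0.0364), and that of dnPI3K from NTG over probe sets above the median (adjusted p = 0.0475).

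Gpx4, which protects membranes by reducing phospholipid peroxides, read 3000.0 ± 331 on caPI3K arrays, 2654 ± 29.0 on dnPI3K arrays and 2999 ± 247 on NTG arrays. Gpx2, the form of the gut, read 301 ± 70.6 on caPI3K arrays, 303 ± 18.1 on dnPI3K arrays and 360.2 ± 66.1 on NTG arrays. Gpx5, the form of the epididymis, read 33.7, 126 and 160.3 on caPI3K arrays, 166, 119 and 87.0 on dnPI3K arrays and 26.4, 77.2 and 101 on NTG arrays, with the groups overlapping. Gpx1 and Gpx7 had log2 fold changes between -0.19 and 0.18. None of the 6 peroxidases passed in any comparison.

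Peroxiredoxins remove peroxides through a reactive cysteine that thioredoxin restores. Prdx2, the cytosolic form, read 9330.0 ± 298 on caPI3K arrays, 8599.8 ± 1136 on dnPI3K arrays and 9753 ± 347 on NTG arrays, and Prdx3, the mitochondrial form, read 4463 ± 254 on caPI3K arrays, 4100.1 ± 208 on dnPI3K arrays and 4824 ± 546 on NTG arrays. For Prdx3 the dnPI3K arrays all lay below the NTG arrays, with a log2 difference of -0.23 ± 0.096 (adjusted p = 0.293). Prdx4, the form of the endoplasmic reticulum, read 345, 360.5 and 223 on caPI3K arrays, 503, 390.4 and 459 on dnPI3K arrays and 368, 339 and 301 on NTG arrays. All dnPI3K arrays of Prdx4 lay above all other arrays, and the log2 fold changes were 0.42 ± 0.21 for dnPI3K against NTG (adjusted p = 0.4) and -0.57 ± 0.21 for caPI3K against dnPI3K (adjusted p = 0.204), neither of which passed. Prdx1 was not a member because its probe sets carry several symbols, and they read 9714 ± 716 on caPI3K arrays, 8568 ± 179.6 on dnPI3K arrays and 9023 ± 1254 on NTG arrays on one probe set and 9311 ± 620.5 on caPI3K arrays, 8666 ± 566 on dnPI3K arrays and 9121 ± 324 on NTG arrays on the other, with log2 fold changes within 0.18 of 0.

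In the thioredoxin system, the cytosolic thioredoxin Txn1 read 3322 ± 174 on caPI3K arrays, 3052 ± 263 on dnPI3K arrays and 3236 ± 290.2 on NTG arrays and the mitochondrial Txn2 read 3415 ± 81.4 on caPI3K arrays, 4016 ± 254 on dnPI3K arrays and 3562 ± 469 on NTG arrays. All caPI3K arrays of Txn2 lay below all dnPI3K arrays, with a log2 difference of -0.23 ± 0.10 (adjusted p = 0.287). Glutaredoxin (Glrx), which uses glutathione to free proteins bound to it, read 1498, 1048 and 1319 on caPI3K arrays, 1013, 766 and 872 on dnPI3K arrays and 769.5, 1219 and 1205 on NTG arrays, with caPI3K above dnPI3K by 0.54 ± 0.20 (adjusted p = 0.192).

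Txnrd3, a reductase of the thioredoxin family best known from testis, varied widely within the caPI3K and NTG groups. It read 1210.4, 2749 and 1432 on caPI3K arrays, 413, 537 and 669 on dnPI3K arrays and 2176, 1403 and 519.7 on NTG arrays. All dnPI3K arrays lay below all caPI3K arrays, and the NTG arrays ran from among the dnPI3K values to among the caPI3K values. The differences were 1.67 ± 0.46 for caPI3K against dnPI3K (adjusted p = 0.0865) and -1.14 ± 0.46 for dnPI3K against NTG (adjusted p = 0.274). Both passed without NTG replicate 3 (1.68, adjusted p = 0.0154, and -1.73, adjusted p = 0.0336), and the difference between caPI3K and dnPI3K also passed without NTG replicate 1 (adjusted p = 0.049), with array weights (adjusted p = 0.0383) and in a fit of those groups alone (adjusted p = 0.0271). The second probe set of Txnrd3 gave -0.23 ± 0.68 for caPI3K against dnPI3K and 0.34 ± 0.68 for dnPI3K against NTG, opposite in sign to the first. It was dimmer, with a mean of 91.8 over all arrays against 1234 for the first.

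Glutathione synthesis and reduction showed no call. Gclc and Gclm, the catalytic and modifier subunits of the rate-limiting ligase, read 342 ± 39.1 on caPI3K arrays, 301 ± 90.9 on dnPI3K arrays and 271 ± 88.8 on NTG arrays for Gclc and 244 ± 7.13 on caPI3K arrays, 289.7 ± 40.2 on dnPI3K arrays and 258 ± 77.3 on NTG arrays for Gclm (mean ± SD, n = 3 each). Glutathione synthetase (Gss) read 709.8 ± 65.1 on caPI3K arrays, 628 ± 84.9 on dnPI3K arrays and 664 ± 105 on NTG arrays, and glutathione reductase (Gsr), which recycles oxidised glutathione, read 624 ± 71.5 on caPI3K arrays, 609 ± 59.6 on dnPI3K arrays and 689 ± 106 on NTG arrays. Over these 4 genes the log2 fold changes ran from -0.24 to 0.39, and the smallest adjusted p was 0.64.

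Sod1, the cytosolic copper and zinc superoxide dismutase, had the log2 fold change of largest size among the 52 members for caPI3K against dnPI3K. It read 1047, 1042 and 1197 on caPI3K arrays, 3866, 3337 and 3439.7 on dnPI3K arrays and 999.8, 967 and 4081 on NTG arrays. The dnPI3K arrays all lay above all caPI3K arrays, and NTG replicates 1 and 2 lay with caPI3K while NTG replicate 3 lay with dnPI3K. With all arrays, Sod1 differed by 1.16 ± 0.43 between dnPI3K and NTG (adjusted p = 0.227), by -1.70 ± 0.43 between caPI3K and dnPI3K (adjusted p = 0.0624) and by -0.53 ± 0.43 between caPI3K and NTG (adjusted p = 0.841), and none passed in the reported fit.

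The outcome for Sod1 changed without NTG replicate 3 and under other settings. Without that array, dnPI3K exceeded NTG by 1.86 on the log2 scale (adjusted p = 7.77e-05) and caPI3K differed from dnPI3K by -1.70 (adjusted p = 4.26e-05). A fit of caPI3K and dnPI3K arrays alone also passed (-1.70, adjusted p = 0.000394). Its values were still normalized, floored and filtered over all 9 arrays. On all 9 arrays the same difference passed with the floor at the 40th percentile (adjusted p = 0.0453), over only probe sets above the median (adjusted p = 0.0383) and with array weights (adjusted p = 0.0187). Between caPI3K and NTG the difference was 0.087 in animals numbered from 2800 and -1.77 in those numbered from 3100. Sod3, the extracellular form, read 1612 ± 242 on caPI3K arrays, 1275 ± 189.6 on dnPI3K arrays and 1458 ± 105 on NTG arrays, with caPI3K 0.34 ± 0.14 above dnPI3K (adjusted p = 0.254).

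NTG replicate 3 was also the extreme NTG array for other members. Txnrd3, Sod1 and Nqo1 are 3 of the 5 members, among 45 above background on every array, whose highest NTG array was over 2-fold the lowest, the others being Gstt2 and Aldh3a1, for which NTG replicate 2 was the lowest. There were 2 such members in caPI3K (Txnrd3 and Aldh3a1) and 1 in dnPI3K (Gstt2). The median ratio of highest to lowest array was 1.23 in caPI3K, 1.265 in dnPI3K and 1.35 in NTG. Without NTG replicate 3, limma called 5 members between dnPI3K and NTG, of which Sod1, Aldh2 and Gsto1 were higher and Mgst3 and Txnrd3 lower in dnPI3K, and 7 members between caPI3K and dnPI3K. Over all 10528 probe sets tested without that array, 235 were called between dnPI3K and NTG and 435 between caPI3K and dnPI3K. Gsto1, an omega-class transferase, was named after its values were seen.

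**Figure D3:**
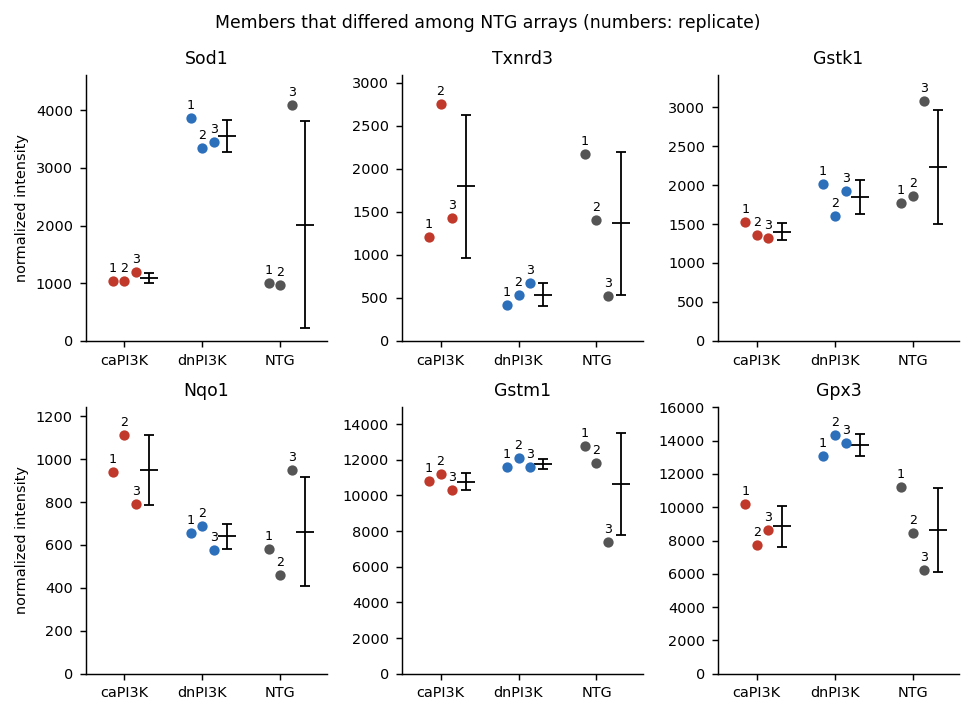
Normalized intensity (y axis, linear, from 0) of Sod1, Txnrd3, Gstk1, Nqo1, Gstm1 and Gpx3 on each array (points numbered by replicate), by group, with the mean and SD (n = 3) as a bar. These genes were chosen after their values were seen, to show NTG replicate 3, which is the highest NTG array for Sod1, Gstk1 and Nqo1 and the lowest for Txnrd3, Gstm1 and Gpx3.

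Aldehyde dehydrogenases oxidise the aldehydes left by lipid peroxidation and by other metabolism. None of the 9 tested passed on its brightest probe set, yet 8 of 9 had a log2 fold change above 0 for dnPI3K against NTG, with a median of 0.39, and 4 of 9 lay higher without overlap. Of all probe sets 50.5% lay above 0 and 9.75% lay higher without overlap. The 4 were Aldh1a1, Aldh1a7, Aldh3a2 and Aldh7a1. Of these, Aldh1a7 was near background, with 2 NTG arrays on the floor, and a second, dimmer probe set of Aldh1a1 had the opposite sign (-0.27 ± 0.45). Between caPI3K and NTG 7 of 9 lay above 0 (49.7% of all probe sets), with a median of 0.15.

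Aldh2, the mitochondrial enzyme that clears acetaldehyde and hydroxynonenal, was measured by 3 probe sets. The brightest read 1464, 1581 and 1753 on caPI3K arrays, 2325, 2382 and 2158 on dnPI3K arrays and 1527, 1710.4 and 2521 on NTG arrays. Its caPI3K arrays lay below all dnPI3K arrays, with a log2 difference of -0.52 ± 0.16 (adjusted p = 0.125), and NTG replicate 3 lay above all dnPI3K arrays, and dnPI3K differed from NTG by 0.29 ± 0.16 (adjusted p = 0.462). Without NTG replicate 3 both passed, at -0.52 (adjusted p = 0.0181) and 0.50 (adjusted p = 0.0488), and in a fit of caPI3K and dnPI3K alone the first passed (adjusted p = 0.027).

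The other probe sets of Aldh2 showed the same order of dnPI3K over caPI3K. The next brightest read 953, 827 and 1059 on caPI3K arrays, 1542, 1628 and 1539 on dnPI3K arrays and 842, 1033 and 1255 on NTG arrays, and caPI3K differed from dnPI3K by -0.74 ± 0.15 (adjusted p = 0.0229) and dnPI3K from NTG by 0.61 ± 0.15 (adjusted p = 0.067). The dimmest, which also shares probes with relatives, read 288, 233 and 341 on caPI3K arrays, 649, 592 and 501 on dnPI3K arrays and 309.8, 329.6 and 311 on NTG arrays. On it the dnPI3K arrays lay above all others, at 0.87 ± 0.18 relative to NTG (adjusted p = 0.0418), and caPI3K differed from dnPI3K by -1.02 ± 0.18 (adjusted p = 0.0145). Over 18 alternatives these probe sets passed for caPI3K against dnPI3K in 11 and 15, and for dnPI3K against NTG in 3 and 7.

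Aldh7a1, which acts in lysine breakdown, read 787, 867 and 857 on caPI3K arrays, 1062, 986 and 1308 on dnPI3K arrays and 914, 637 and 733 on NTG arrays. Aldh3a2, the fatty aldehyde dehydrogenase, read 461, 441 and 359 on caPI3K arrays, 519, 541 and 666 on dnPI3K arrays and 355, 340.5 and 411 on NTG arrays. For both genes all dnPI3K arrays lay above all others, by 0.56 ± 0.15 for Aldh7a1 (adjusted p = 0.0994) and 0.64 ± 0.17 for Aldh3a2 relative to NTG (adjusted p = 0.0899), and neither passed. The other tested probe set of Aldh7a1 gave 0.57 (adjusted p = 0.109), again without overlap with NTG. That of Aldh3a2 gave 0.31 (adjusted p = 0.664), and its dnPI3K and NTG arrays overlapped. Aldh1a1, a retinaldehyde dehydrogenase, read 1138, 1457 and 1166 on caPI3K arrays, 1374, 1086 and 1287 on dnPI3K arrays and 1036, 662 and 1061 on NTG arrays, above all NTG arrays in both transgenic groups. The step over NTG was 0.47 ± 0.19 for caPI3K (adjusted p = 0.665) while for dnPI3K it was 0.47 ± 0.19 (adjusted p = 0.268). In animals numbered from 2800 caPI3K minus NTG was 0.64, and in those from 3100, with 1 array a group, it was 0.14. The second probe set gave -1.05 ± 0.45 and -0.27 ± 0.45 for caPI3K and dnPI3K against NTG, opposite in sign. It was dimmer, with a mean of 117 over all arrays against 1141 for the first, and caPI3K replicate 2 was on the floor.

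**Figure D4:**
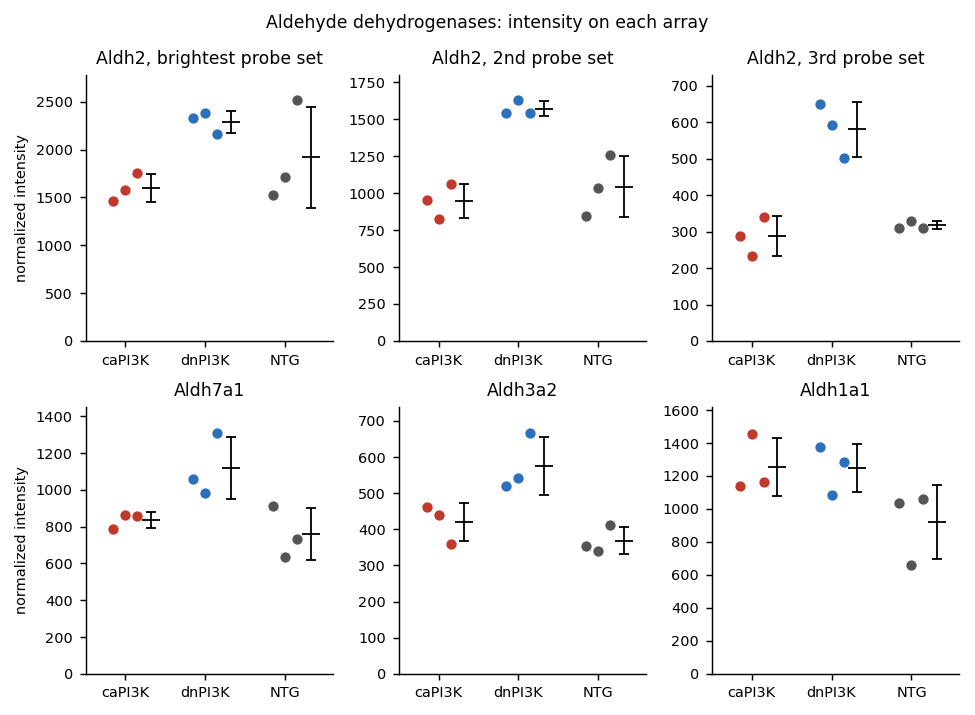
Normalized intensity (y axis, linear, from 0) of 3 probe sets of Aldh2 and of the brightest probe sets of Aldh7a1, Aldh3a2 and Aldh1a1 on each array (points), by group, with the mean and SD (n = 3) as a bar. The dnPI3K arrays lie above the caPI3K arrays on all 3 Aldh2 probe sets, and NTG replicate 3 is the highest NTG array on the brightest 2 of them.

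Other genes of the antioxidant pathway, drawn from a list of regulators, NADPH suppliers and redox enzymes outside these families, gave 1 call among 37 measured of 47 listed. It was Park7 (DJ-1), a redox-sensitive protein that protects mitochondria, which read 7253, 5968 and 5909 on caPI3K arrays, 4578, 4517 and 4664 on dnPI3K arrays and 4664, 4411 and 4650.0 on NTG arrays. The caPI3K arrays lay above all others, by 0.47 ± 0.091 relative to dnPI3K (adjusted p = 0.0198) and 0.47 ± 0.091 relative to NTG (adjusted p = 0.143), of which the first passed (3.24% of all probe sets were called). Between caPI3K and NTG 0 of 37 passed and 5 had an unadjusted p under 0.05, where 6.9% of all probe sets did. The next smallest p-values after that of Park7 were those of Me1, the malic enzyme that supplies NADPH, at 0.66 ± 0.17 (adjusted p = 0.422), Sesn1 at -0.33 ± 0.098 and Akr1a1 at 0.32 ± 0.11.

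Between caPI3K and dnPI3K 8 of 37 had an unadjusted p under 0.05, where 16.4% of all probe sets did. Between dnPI3K and NTG 0 of 37 passed and 6 had an unadjusted p under 0.05, where 14.8% of all did. The smallest p-values belonged to Nfe2l1, a relative of Nrf2, at 0.31 ± 0.088 (adjusted p = 0.114), to Ephx1, an epoxide hydrolase, at 0.86 ± 0.26 (adjusted p = 0.136), to Maff at 1.38 ± 0.52 and to the zinc exporter Slc30a1 at -0.64 ± 0.25. Nfe2l2, the gene of Nrf2, read 973, 809.5 and 845 on caPI3K arrays, 1008, 1029 and 972 on dnPI3K arrays and 817, 939 and 1042 on NTG arrays, with the groups overlapping. Its log2 fold change was -0.088 ± 0.12 for caPI3K against NTG and 0.11 ± 0.12 for dnPI3K against NTG.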

How the data were processed

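RNA of the ventricle from 9 mice, 1 array per mouse, was measured on 1-colour oligonucleotide arrays. The deposited intensities are linear values per probe set and, per the labels, the arrays were scanned alike. As deposited, the 2% trimmed mean was 500.4 on each array. Probes had been summarised by a method not given in the sources used here.

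All 12488 probe sets were quantile-normalized, floored at the 20th percentile (35.34) and put on the log2 scale. The 66 array controls were then removed, and probe sets above the floor on at least 3 of 9 arrays (10645) were fitted with limma 3.58.1 in R 4.3.3 on all 9 arrays (lmFit, contrasts.fit, eBayes with an intensity trend, 6 residual degrees of freedom), with two-sided tests and Benjamini-Hochberg adjustment over all 10645 at 0.05. Simulated data were used to check the fit. The number of arrays limits the precision, and the tests set each group difference against the spread between mice within groups. Values in the text are normalized intensities, and errors of log2 fold changes are standard errors.

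Symbols came from the platform annotation, with 1 symbol for 10855 probe sets, several for 396 and none listed for 1237, and 10839 were the same as in the mouse gene table of GRCm38.p6. Probe sets with several symbols were not members. Members and lists were chosen with earlier results of these data known. Named members are those past the threshold in any comparison, up to 4 per role with the smallest p, and the 5 with the highest mean in NTG. Alternatives were 20 settings of scaling, floor, filter, trend, weights, probe set choice, arrays and block.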

Additional observations from a re-analysis of the deposited data

How the results depend on the processing

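Of 1957 values of the 34 named members under 20 alternatives, 1867 kept their direction and their side of the threshold, 11 lost the threshold, 24 gained it and 55 changed sign while past the threshold under neither. No called value changed sign. Between caPI3K and NTG limma called 0 members under each alternative, with 4 at an unadjusted p under 0.05 in the reported fit. The count over all probe sets there (9) was 1 with no filter, 1 with no intensity trend, 0 in a fit of the 2 groups alone, and 0 to 20 leaving out 1 array. For dnPI3K against NTG (232) it was 138, 94 and 94 under the same settings, and 82 to 235 leaving out 1 array. For caPI3K against dnPI3K (345) it was 219 with no filter, 151 with no trend, 527 with array weights, and 134 to 435 leaving out 1 array. Members called between dnPI3K and NTG (1) numbered 0 with arrays scaled to the same median, 0 with no trend, 0 in the fit of the 2 groups, and 0 to 5 leaving out 1 array. With only probe sets above the median they numbered 2 of 43, where 259 of all 6218 probe sets were called. Members called between caPI3K and dnPI3K (3) numbered 1 with no trend, 7 with array weights and 2 to 7 leaving out 1 array. With the floor at the 40th percentile they numbered 5 of 46, where 410 of all 7966 probe sets were called. In the fit of the 2 groups they numbered 7 of 52, where 376 of all 10645 were called. The cause of these shifts was not tested. With a common median, 135 higher and 93 lower probe sets were called for dnPI3K against NTG, in place of 108 and 124. No paired analysis was possible because the labels give no replicate numbers shared between groups. With the animal series (numbers from 2800 or 3100) as a block, caPI3K against NTG gave 8 probe sets and 0 members. With 3 arrays a group, a member that misses the threshold is not shown to be unchanged, and dim members such as Gpx5, Mgst2 and Aldh1a7 lie near background.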

Other observations

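The probe sets of Glrx3, a glutaredoxin that assembles iron and sulphur clusters, also carry the symbol of a predicted gene and so were not members. One read 8036, 7084 and 6872 on caPI3K arrays, 6467, 6019 and 6391 on dnPI3K arrays and 6420.3, 6999.7 and 7253 on NTG arrays, and the other read 3669, 3209 and 3035 on caPI3K arrays, 3169, 3169 and 3555 on dnPI3K arrays and 3265, 2863 and 3758 on NTG arrays. None of their differences passed, and the smallest adjusted p from limma was 0.234.

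In the pathway list, Sesn1, a sestrin that protects peroxiredoxins and is a FoxO and p53 target, read 2279, 2656 and 2742 on caPI3K arrays, 3656, 3209 and 3297 on dnPI3K arrays and 3083, 3449 and 3109 on NTG arrays. The caPI3K arrays lay below all others, and caPI3K differed from dnPI3K by -0.41 ± 0.098 (adjusted p = 0.0522). Catalase (Cat), which breaks down hydrogen peroxide in peroxisomes, read 1372, 1446 and 1332 on caPI3K arrays, 1009.7, 1106 and 1018 on dnPI3K arrays and 1123, 928 and 1384 on NTG arrays, and was named after its values were seen. Its caPI3K arrays lay above all dnPI3K arrays, by 0.41 ± 0.14 (adjusted p = 0.152). Neither gene passed.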
